A study of Mus musculus with 84 samples.

Results

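Promoters that differed in the repressive histone mark H3K27me3 between adipocytes of formerly obese mice and those of lean mice of the same age were examined in 5 of the 84 samples of the study. A promoter was taken to reach from 2000 bp upstream to 2000 bp downstream of the transcription start sites (TSS) of a protein-coding gene, and it counted as marked in a library when a called peak overlapped any of its windows by at least 1 bp. Of 21851 promoters, 299 were gained after weight loss (WL), which means marked in 3 of 3 libraries of the WL group and in 0 of 2 control libraries. In the opposite direction 160 were lost, which means marked in 2 of 2 control libraries and in 0 of 3 WL libraries. These counts amount to 1.37% of all promoters for the gained set and 0.732% for the lost set. With 3 libraries against 2, an exact permutation test of a single promoter cannot go below p = 0.1, so gained and lost are descriptions of the peak lists and carry no p-value.

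The WL group (HHC, 3 libraries) had eaten a high-fat diet (HFD) for 25 weeks and then standard chow for 8 weeks. The control group (CCC, 2 libraries) had eaten a low-fat chow while the WL group ate HFD, and then the same standard chow. Both were 39 weeks old at collection. All animals of both groups were male AdipoERCre x NuTRAP mice, with a background given as C576BL6 in the labels and as C57BL/N in the methods, that had received tamoxifen by gavage at 4 to 5 weeks of age, with 2 weeks of washout. In this cross the adipocyte-restricted Adipoq promoter drives a tamoxifen-inducible Cre, which switches on the NuTRAP reporter and thereby tags adipocyte nuclei with biotin. Labelling preceded the diet, so that cells in which the promoter was not active at that time were not tagged by it. Nuclei from epididymal adipose tissue (epiAT) were pulled down on streptavidin beads for CUT&Tag, where an antibody tethers a transposase to the chromatin that carries the mark. The nuclei of an animal were profiled together, and a peak carried by some of the nuclei cannot be told apart from a weaker mark in all of them.

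H3K27me3 is deposited by polycomb repressive complex 2, whose catalytic subunit is Ezh2 or Ezh1. It lies in broad domains over the promoters of silent developmental regulators, such as Hox and other homeobox genes, and keeps the genes of other lineages off in differentiated cells. Promoters of active genes usually carry H3K4me3 and H3K27ac instead. H3K27ac and H3K27me3 occupy the same lysine and exclude each other on a single histone tail, whereas H3K4me3 and H3K27me3 can share a promoter. Unmethylated CpG-rich DNA is a usual platform for polycomb in mammals.

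To show which DNA carried the mark, stretches of 200 bases are printed for promoters that recur in the results. Each lies inside the peaks of every library of the marked group, within the promoter window and outside annotated exons. Sequences were read 5′ to 3′ on the strand of the gene from the RefSeq copy of build GRCm38.p6, and CpG dinucleotides are in capitals. The first set belongs to gained promoters of genes that adipocytes are known for, and to Sfrp5, an inhibitor of Wnt signalling secreted by adipocytes.
Car3: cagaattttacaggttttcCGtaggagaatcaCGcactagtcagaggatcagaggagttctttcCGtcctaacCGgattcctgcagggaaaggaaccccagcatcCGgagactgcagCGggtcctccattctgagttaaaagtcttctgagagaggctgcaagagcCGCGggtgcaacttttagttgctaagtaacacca
Klf15: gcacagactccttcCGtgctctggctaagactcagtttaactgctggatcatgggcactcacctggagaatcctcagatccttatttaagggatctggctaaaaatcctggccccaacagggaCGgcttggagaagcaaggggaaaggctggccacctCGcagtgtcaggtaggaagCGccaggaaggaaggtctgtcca
Retn: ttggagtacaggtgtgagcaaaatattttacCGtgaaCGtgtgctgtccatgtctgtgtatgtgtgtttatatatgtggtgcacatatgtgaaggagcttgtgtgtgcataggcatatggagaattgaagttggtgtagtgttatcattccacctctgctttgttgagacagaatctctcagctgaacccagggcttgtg
Ebf2: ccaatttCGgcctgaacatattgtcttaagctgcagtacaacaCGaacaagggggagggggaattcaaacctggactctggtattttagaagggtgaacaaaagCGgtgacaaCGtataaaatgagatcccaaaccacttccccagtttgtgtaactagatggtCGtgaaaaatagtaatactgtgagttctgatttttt
Sfrp5: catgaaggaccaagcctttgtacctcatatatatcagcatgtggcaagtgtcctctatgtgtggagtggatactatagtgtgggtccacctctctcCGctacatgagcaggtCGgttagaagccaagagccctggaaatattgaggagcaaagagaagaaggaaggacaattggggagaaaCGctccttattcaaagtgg
The stretches of Car3 (chr3:14862930-14863129, + strand), Klf15 (chr6:90461632-90461831, + strand), Ebf2 (chr14:67231543-67231742, + strand) and Sfrp5 (chr19:42203626-42203825, - strand) lay between genes, upstream of the start site. That of Retn (chr8:3656427-3656626, + strand) lay in an intron of the gene itself. They held between 2 CpG (Retn) and 8 CpG (Car3).

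The second set belongs to lost promoters: Icam1, an adhesion molecule that binds leukocytes, Rcsd1, an actin-capping regulator, Elk3, an ETS-family transcription factor, and Cyp26c1, which breaks down retinoic acid.
Icam1: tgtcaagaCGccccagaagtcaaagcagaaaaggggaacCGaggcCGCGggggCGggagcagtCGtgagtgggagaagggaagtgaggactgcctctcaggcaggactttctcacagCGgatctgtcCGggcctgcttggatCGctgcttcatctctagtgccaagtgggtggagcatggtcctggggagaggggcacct
Rcsd1: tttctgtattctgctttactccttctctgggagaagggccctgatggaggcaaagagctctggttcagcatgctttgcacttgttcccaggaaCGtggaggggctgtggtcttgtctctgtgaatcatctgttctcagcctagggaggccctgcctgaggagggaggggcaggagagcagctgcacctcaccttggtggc
Elk3: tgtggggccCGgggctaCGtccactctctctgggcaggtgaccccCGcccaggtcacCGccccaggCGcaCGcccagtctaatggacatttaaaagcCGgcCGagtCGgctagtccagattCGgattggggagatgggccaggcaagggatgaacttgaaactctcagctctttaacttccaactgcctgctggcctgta
Cyp26c1: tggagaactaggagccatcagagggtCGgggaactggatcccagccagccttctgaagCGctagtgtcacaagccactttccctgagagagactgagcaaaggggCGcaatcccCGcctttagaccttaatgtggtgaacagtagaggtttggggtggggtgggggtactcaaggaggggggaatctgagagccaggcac
The Icam1 (chr9:21015289-21015488, + strand), Rcsd1 (chr1:165709823-165710022, - strand) and Cyp26c1 (chr19:37684721-37684920, + strand) stretches lay upstream of the gene between annotated genes, and that of Elk3 (chr10:93310036-93310235, - strand) in an intron of Elk3. The number of CpG ranged from 1 (Rcsd1) to 10 (Elk3). CpG-poor and CpG-rich DNA therefore occurred in both sets, and the base composition of all members is given further on.

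The 5 libraries were of like size. The peak lists held 37270, 39798 and 46397 peaks in HHC replicates 1 to 3, and 41887 and 35547 in CCC replicates 1 and 3. Peaks covered 78.0, 78.5 and 82.9 Mb of the genome in HHC and 70.4 and 61.4 Mb in CCC. The groups did not overlap in covered length, with a difference of 0.28 on the log2 scale and p = 0.1 in a two-sided exact permutation test, the smallest value possible here (adjusted p = 0.4 over 4 library measures, Benjamini-Hochberg). Peak width ran the same way, with medians of 1499 to 1532 bp in HHC and 1259 to 1273 bp in CCC. Marked promoters numbered 5690, 4476 and 4773 in HHC and 4563 and 3906 in CCC, so that the lowest HHC library fell below the higher CCC library (mean 4980 ± 633, SD, n = 3, against 4234 ± 465, n = 2; exact permutation p = 0.3, adjusted 0.6). The share of peaks that touched a promoter also overlapped between groups, at 16.6% ± 3.80 against 14.8% ± 0.230 (exact permutation p = 0.8). HHC replicate 1 had the most marked promoters and the highest share of peaks at promoters, 20.9% against 13.6 to 15.4% in the other libraries.

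Most promoters did not differ. A peak was found in 0 of 5 libraries at 13659 promoters (62.5%), and in 5 of 5 at 2133 (9.76%). The gained set required every library, and therefore grew when any HHC or CCC library was left out, to 781 without HHC replicate 2, 466 without HHC replicate 3 and 651 without CCC replicate 1. The lost set grew to 248 without HHC replicate 1, 354 without HHC replicate 2, 432 without CCC replicate 1 and 553 without CCC replicate 3. Just outside the gained set lay 745 promoters marked in 2 of 3 HHC and 0 of 2 CCC libraries, and 479 marked in 3 of 3 and 1 of 2. Just outside the lost set lay 665 promoters marked in 0 of 3 and 1 of 2 libraries, and 323 marked in 1 of 3 and 2 of 2.

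The labelled cell type was checked against marker genes. H3K4me3 peaks were found at 15, 15 and 12 of 15 adipocyte markers in HHC replicates 1 to 3 and at 15 of 15 in both CCC libraries. Fabp4, Pparg, Lipe and Plin1 were among those marked in all, whereas Adipoq, Lep and Cidec lacked H3K4me3 in HHC replicate 3. Markers of other cell types carried H3K4me3 as well. It lay at 14, 11 and 12 of 16 macrophage and leukocyte markers in HHC against 7 and 4 in CCC. It lay at 14, 9 and 10 of 14 lymphocyte markers in HHC against 1 and 1 in CCC, and at 6, 10 and 12 of 13 endothelial markers against 4 and 5. For these 3 lists the HHC and CCC libraries did not overlap in H3K4me3. Over all promoters H3K4me3 was 1.83 points higher in HHC, with overlap between the groups. The groups overlapped for mesothelial markers (3, 6 and 5 of 12 against 4 and 5), progenitor markers (9, 12 and 11 of 13 against 10 and 10), mural markers (5, 7 and 8 of 10 against 6 and 7) and markers of the epididymal epithelium (3, 5 and 4 of 12 against 3 and 4). H3K27ac at lymphocyte markers ran the same way as H3K4me3, at 13, 2 and 6 of 14 against 1 and 0. At endothelial markers it lay at 5, 4 and 8 of 13 against 2 and 0. At macrophage and leukocyte markers it lay at 15, 6 and 8 of 16 against 6 and 2. HHC replicate 2 thus equalled CCC replicate 1 there. CCC replicate 3 had H3K27ac at 17.7% of all promoters, against 50.8 to 53.6% in the other libraries. The part of other cell types in the H3K27me3 differences was not tested.

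Of 32 genes in a list of adipocyte identity, 5 were gained (15.6%, beside 1.37% of all promoters) and 0 were lost. Of the 15 adipocyte markers used above, 0 were gained and 0 lost. At Ebf2, a transcription factor of brown and beige adipocyte precursors, peaks covered 100, 72.1 and 77.6% of the window in HHC replicates 1 to 3 and 0% in both CCC libraries. At Car3, a carbonic anhydrase abundant in white adipocytes, they covered 58.8, 59.2 and 78.3% in HHC. At Klf15, a Kruppel-like factor that promotes adipogenesis, they covered 72.1, 51.4 and 80.4%. Retn, which encodes the adipokine resistin, had 71.3, 44.2 and 41.5% of its window covered, and Rbp4, which encodes the retinol carrier of plasma, 93.0, 38.8 and 36.1%. The CCC libraries stood at 0% for all 5 genes, as the rule requires, and HHC replicate 1 was the most covered at 3 of them.

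The same direction was seen when partial differences were counted. A promoter had a higher share of its libraries marked in HHC than in CCC at 17.5% of all promoters, and a lower share at 10.2%. Among the adipocyte identity genes 16 of 32 (50%) had a higher share and 1 a lower one. The additional members were Lep, Acvr1c and Trarg1, marked in 2 of 3 HHC and 0 of 2 CCC libraries, and Pparg, Cebpa, Nr1h3, Rxra, Zfp423, Aqp7, Fabp5 and Sncg, marked in 1 of 3 and 0 of 2. Lep encodes leptin, and Pparg and Cebpa encode the transcription factors that drive adipocyte differentiation. The exception was Apln, which encodes apelin, with 1 of 3 HHC and 1 of 2 CCC libraries. Without HHC replicate 1 the count with a higher share fell to 10 of 32 (31.2%), beside 11% of all promoters, and in the other libraries left out in turn it stood between 14 and 17. Adipoq, the gene whose promoter drives the Cre, was marked in 5 of 5 libraries, and Fabp4, the fatty acid carrier of adipocytes, in 0 of 5.

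Lipid synthesis genes showed the same direction. Of 41 genes of lipogenesis and triglyceride synthesis, 3 were gained (7.32%, beside 1.37% of all promoters) and 0 were lost. A higher share of libraries was marked in HHC at 17 (41.5%, beside 17.5% of all promoters), and a lower share at 0. Mlxipl, which encodes the glucose-sensing transcription factor ChREBP, had 98.9, 46.1 and 32.9% of its window covered in HHC. Mogat2, an acyltransferase of triglyceride synthesis, had 91.8, 66.3 and 50.9%, and Lpin1, a phosphatidate phosphatase, 8.10, 26.7 and 49.7%. Dgat2, Scd1, Fads2, Gpat3, Lpin3 and Acacb were marked in 2 of 3 HHC and 0 of 2 CCC libraries, and Gpam, Me1, Agpat3 and Scd3 in 1 of 3 and 0 of 2. Elovl3, Pklr, Mogat1 and Gpat2 were marked in 3 of 3 and 1 of 2. The count with a higher share stood between 15 and 17 of 41 with any of the 5 libraries left out. At Acacb the covered part of the window was 29.9, 0 and 35.5%, and at Gpam 0, 0 and 29.1%. Acacb and Gpam therefore stood outside the gained set because HHC libraries lacked a peak, and not because CCC libraries held one.

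Genes of the lipid droplet and of lipolysis showed 1 gained promoter of 33, Pnpla3, a lipid droplet protein with 27, 27.2 and 47.1% covered. This is 3.03%, beside 1.37% of all promoters. Of all promoters 17.5% had a higher share in HHC and 10.2% a lower one. A higher share in HHC was found at 16 of the 33, among them Cidec, Plin5 and Mgll (2 of 3 and 0 of 2), Plin1, Lpl, Pde3b and Hcar1 (1 of 3 and 0 of 2), and the beta-adrenergic receptors Adrb1 and Adrb3 (3 of 3 and 1 of 2). Plin4 went the other way with 0 of 3 and 1 of 2. This list depended more on 1 library, with 9 of 33 without HHC replicate 1 and 10 of 33 without CCC replicate 3. Of 28 thermogenic genes 10 had a higher share and 0 a lower one, with Ebf2 gained and Ppargc1b, Cidea, Kcnk3 and Dio2 among the others. Of 49 nuclear receptors 22 had a higher share and 1 a lower one, while the gained member was Nr0b2 alone, and the count fell to 10 without HHC replicate 1.

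In insulin signalling and glucose uptake, 2 of 40 promoters were gained (5.00%) and 1 was lost (2.50%), beside 1.37 and 0.732% of all promoters. Irs1, the docking protein of the insulin receptor, had 100, 46.7 and 26.1% of its window covered in HHC, and Cav1, the main protein of adipocyte caveolae, 89.7, 28.5 and 24.4%. Enpp1, an ectoenzyme that inhibits the insulin receptor, was lost, with 30.5 and 26.0% covered in CCC replicates 1 and 3. At Irs1 and Cav1, HHC replicate 1 was covered far more than the other HHC libraries.

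**Figure D1:**
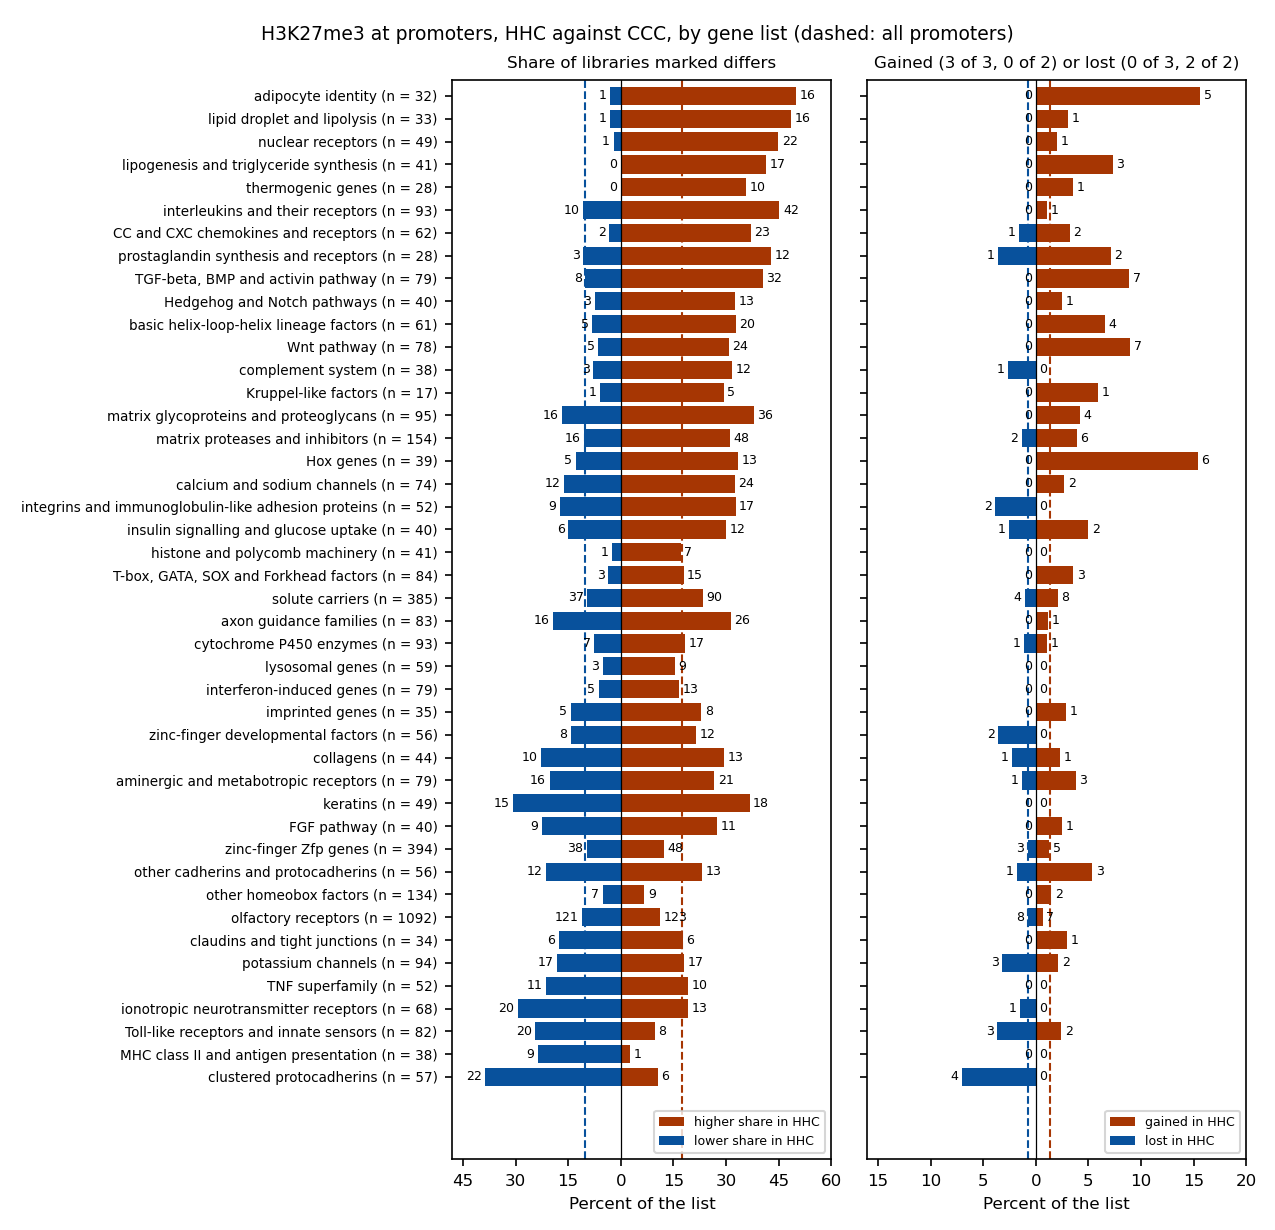
Gene lists, 1 row each, with the number of promoters in the list. The left panel gives the percent of each list whose share of libraries marked by H3K27me3 was higher in HHC (brown, to the right) or lower (blue, to the left). The right panel gives the percent gained (brown) or lost (blue), figures beside bars are counts, and dashed lines give the percent of all promoters (17.5 and 10.2 on the left, 1.37 and 0.732 on the right). Adipocyte identity reached 50% on the left, and clustered protocadherins lay farthest to the blue side.

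Of 39 Hox genes, the factors that set position along the body axis, 6 were gained (15.4%) and 0 were lost. The figures for all promoters were 1.37 and 0.732%. Hoxc4, Hoxc5, Hoxc6 and Hoxc8 lie within a single locus on chromosome 15, which was the largest cluster of gained promoters. Hoxc6 had 99.7, 42.3 and 68.8% of its window covered in HHC, Hoxc8 100, 18.8 and 47%, Hoxc5 67.9, 14.3 and 45.8% and Hoxc4 90.6, 45.8 and 52.7%. In the Hoxa cluster, Hoxa7 had 100, 73.5 and 36.2%. The remaining Hox genes were mostly marked in both groups, 20 of 39 in 5 of 5 libraries. These 6 promoters are neighbours and not independent observations.

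Other homeobox factors were already under polycomb in both groups. Of 134 such promoters 82.8% were marked in 5 of 5 libraries, 2 were gained (Six4 and Pitx3) and 0 were lost. For this and the next lists, the figures for all promoters were 1.37% gained and 0.732% lost. Among T-box, GATA, SOX and Forkhead factors 3 of 84 were gained, Gata6, Sox7 and Tbx10, with 100, 43.2 and 54.4% covered at Gata6, a regulator of heart and visceral mesoderm. Among basic helix-loop-helix lineage factors 4 of 61 were gained, the circadian factor Npas2, Msgn1, and the adipogenic factors Ebf1 and Ebf2 that were placed in the same list. Ebf1 had 72.4, 22.3 and 37.5% of its window covered. Of 56 zinc-finger developmental factors 0 were gained and 2 lost, Prdm1 (55.3 and 18.6% in CCC), a repressor that drives terminal differentiation of lymphocytes, and Zfpm1 (62.5 and 17%), a partner of GATA factors. Klf15 was the gained member of 17 Kruppel-like factors, of which 0 were lost.

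Secreted signals that steer mesenchymal cells were gained on several pathways. In the Wnt pathway 7 of 78 promoters were gained (8.97%) and 0 lost, beside 1.37 and 0.732% of all promoters. The ligands were Wnt5a (63.0, 38.4 and 42% covered in HHC), Wnt9b (81.8, 30.6 and 45.7%) and Wnt8b (36.2, 89.2 and 48.5%). The secreted inhibitors were Sfrp5 (100, 61.8 and 89.2%) and Sfrp4 (87.3, 44.4 and 52.9%). Dkkl1 was gained as well, and the intracellular member was Dixdc1 (100, 35.4 and 59.1%), a positive regulator of the pathway. Ligands and inhibitors, which act in opposite directions, were thus both among the gained genes.

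In the TGF-beta, BMP and activin pathway 7 of 79 were gained (8.86%, beside 1.37% of all promoters) and 0 lost. A higher share in HHC was found at 32 (40.5%) and a lower share at 8 (10.1%), beside 17.5 and 10.2% of all promoters. Most of the gained members bind or process BMP and activin outside the cell. Chrd, Nbl1, Bmper and Fst encode extracellular antagonists or modulators, Bmp1 a protease that cleaves chordin and procollagen, Rgma a BMP co-receptor that also guides axons, and Inhbe an activin subunit made in liver and adipose tissue. Rgma was covered over 87.6, 69.3 and 95.8% of its window, Inhbe over 72.8, 45.6 and 75.4%, Fst over 62.9, 55.6 and 25.0%, Nbl1 over 64.9, 48.4 and 49.1% and Bmp1 over 93.5, 21 and 30.1%. Chrd rested on little in HHC replicate 2, where the peak covered 4.15% of the window against 100 and 78.4% in replicates 1 and 3. Of 40 FGF pathway genes Fgf2 was gained, of 40 Hedgehog and Notch genes Smo, the transducer of Hedgehog signals, and of 83 axon guidance genes Rgma, with 0 lost in each list.

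Of 95 matrix glycoproteins and proteoglycans 4 were gained (4.21%, beside 1.37% of all promoters) and 0 lost. Eln, the elastin gene, had 80.1, 30.5 and 36% covered, Matn2 36.7, 36.4 and 67.9% and Emilin2 52.9, 30.0 and 51.8%. Tnc, which encodes tenascin C, a matrix protein of injured tissue, had 2.27% in HHC replicate 1 and 38.4 and 71.9% in the others. Of 154 matrix proteases and inhibitors 6 were gained, Adam23, Adam33, Adamts1, Adamts14, Adamts15 and Serpina11, and 2 lost, Serpinb11 and Adam6b. Collagens showed 1 of 44 gained, Col1a1 (90.5, 27.2 and 28.8%), and 1 lost, Col9a3, where the peak of CCC replicate 1 touched 0.975% of the window.

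The 12 gained loci with the largest window coverage in their least covered HHC library were Lrrn2, Sertad4, Pacsin3, Snhg11, Rims4, Oprl1, Rgma, Fam110c, Vstm4, Ebf2, Cldn5 and Sfrp5. Vstm4 was covered over 75.9, 74.1 and 66.8% of its window and Cldn5, the claudin of endothelial tight junctions, over 88.4, 73.4 and 70.7%. Pacsin3, an adaptor of endocytosis, was covered over 91.4, 89.1 and 61.1%, and Oprl1, the nociceptin receptor, over 78.8, 61.3 and 66.1%. Lrrn2 (88.2, 81.2 and 65.2%) and Rims4 (84.0, 63.7 and 81.8%), the latter a regulator of vesicle release, showed peaks in the upper part of each library's own ranking, from the 89 to the 97.8 percentile of total signal.

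**Figure D2:**
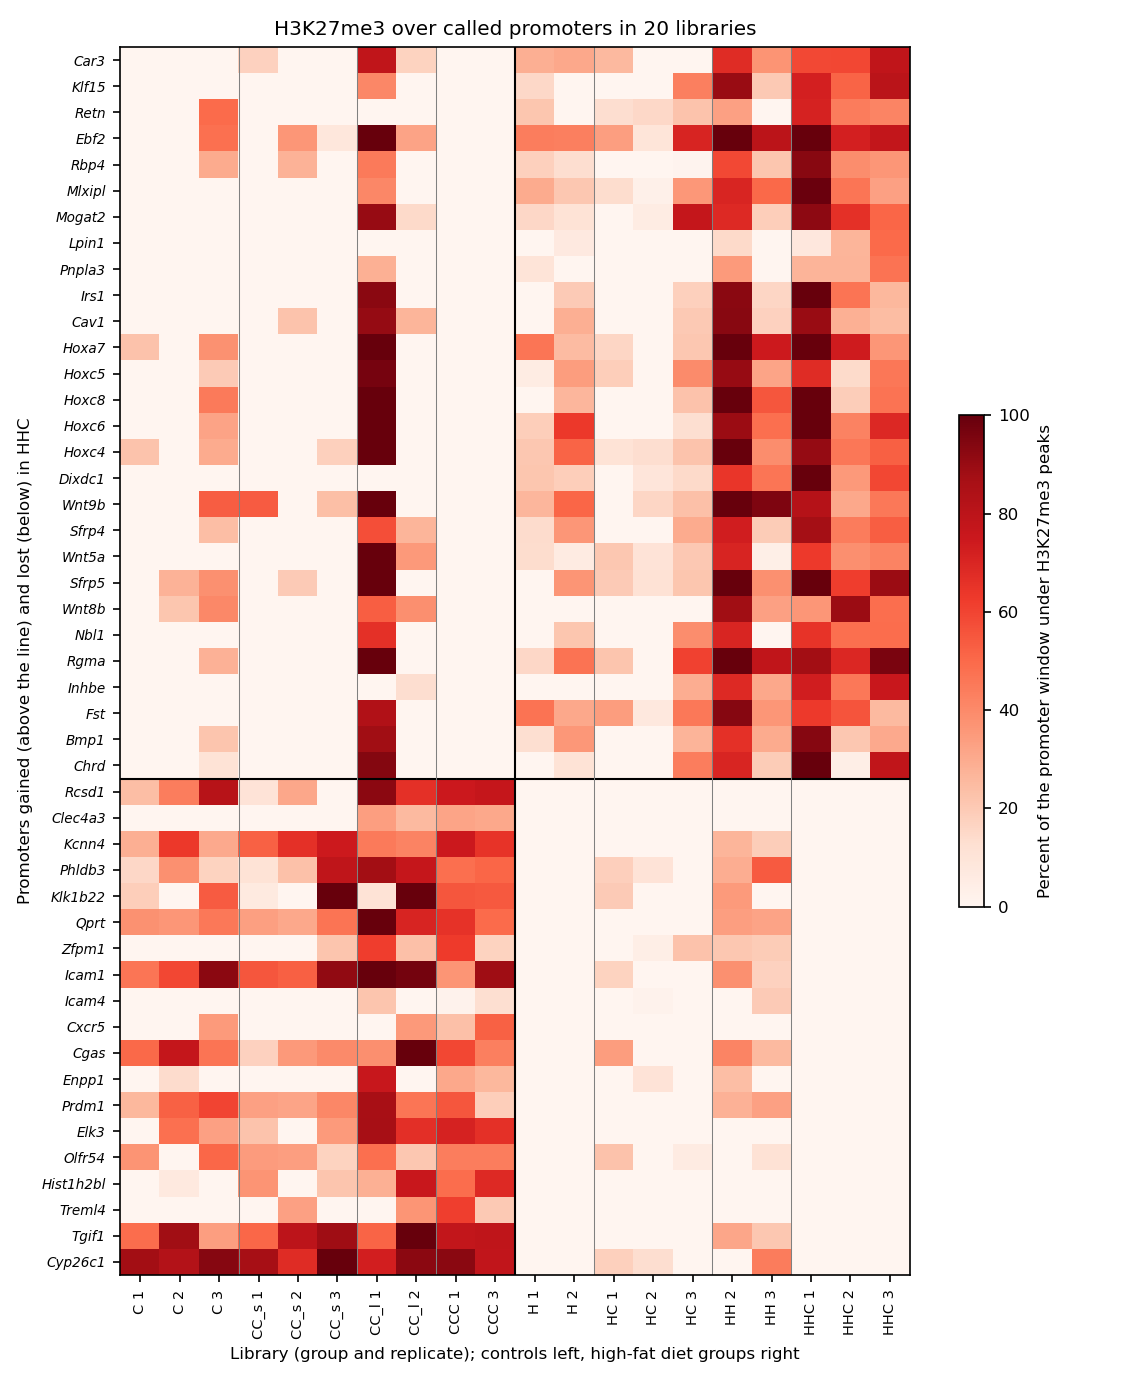
Percent of the promoter window under H3K27me3 peaks (colour, from 0 to 100) for gained promoters above the line and lost promoters below it, in 20 libraries, with chow-fed groups left and groups that had eaten HFD right. The HHC and CCC columns chose the promoters. Icam1, Tgif1 and Cyp26c1 were covered in all chow libraries shown and by nothing in both H libraries, and CC_l replicate 1 was covered at most gained promoters.

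Among the lost promoters, Icam1 had 36.6 and 88.4% of its window covered in CCC replicates 1 and 3 and 0% in all HHC libraries. Its neighbour Icam4, a related adhesion molecule of red blood cells, was lost with it (1.77 and 12.7%). These 2 were the lost members of 52 integrins and immunoglobulin-like adhesion proteins (3.85%, beside 0.732% of all promoters), of which 0 were gained, and both belong to 1 locus. By share of libraries, 17 of the 52 were higher in HHC (32.7%) and 9 lower (17.3%). All promoters leaned the same way, at 17.5 and 10.2%. Of 82 Toll-like receptors and innate sensors 3 were lost (3.66%) and 2 gained. Cgas, the sensor of cytosolic DNA, had 59.3 and 43.2% covered in CCC, Clec4a3 31.7 and 30.8% and Treml4 61.6 and 20.3%. The gained ones were Cd14, the co-receptor for lipopolysaccharide (87.6, 39.9 and 17.3% in HHC), and Clec18a (18.8, 66.8 and 41.5%). Across this list 20 promoters had a lower share of libraries marked in HHC and 8 a higher share, against 10.2% and 17.5% of all promoters, and most of the 20 rested on a peak in 1 of the CCC libraries.

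Some genes of lymphocytes and other leukocytes were among the lost promoters and were chosen after their values were seen. Zap70, a kinase of the T cell receptor, had 19.7 and 4.80% covered in CCC, Cxcr5, a chemokine receptor of B cells, 23.4 and 52.2%, and Prdm1 was described above. Lcp1, an actin bundler of leukocytes, had 21.2 and 27%, Rftn1, a lipid raft protein of B cells, 35.6 and 43.8%, Rcsd1 74.7 and 76.9%, and Ly9, a surface receptor of lymphocytes, 0.350 and 26.0%. At Zap70 and Ly9 a CCC library touched the window by less than 5%. Of the 14 lymphocyte markers 1, Zap70, was lost, while 5 had a higher and 4 a lower share of libraries marked in HHC, and Il2rb, a receptor chain of lymphocytes, was gained. H3K4me3 was found at more lymphocyte and leukocyte markers in HHC than in CCC, as given above. The part of other cells in the loss was not tested. Lymphocyte markers themselves carried H3K27me3 at 4, 6 and 0 of 14 in HHC and at 6 and 4 in CCC, which overlapped.

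MHC class II and antigen presentation genes had 0 gained and 0 lost members of 38, yet 9 had a lower share in HHC and 1, H2-M3, a higher share. Of all promoters 10.2% had a lower share and 17.5% a higher one. The class II master regulator Ciita and H2-Ab1 were marked in 2 of 3 HHC and 2 of 2 CCC libraries, H2-Eb2 in 1 of 3 and 2 of 2, H2-DMa and H2-DMb1 in 0 of 3 and 1 of 2, and Tap2 in 1 of 3 and 1 of 2. Chemokines and their receptors leaned the other way, with 23 of 62 at a higher share and 2 at a lower share, and with Cxcr1 and Ccl21a gained and Cxcr5 lost. So did interleukins and their receptors, 42 of 93 against 10, with Il2rb gained. Immune genes as a whole therefore did not point in a single direction.

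Other losses lay at regulators of signalling and of the cell surface. Tgif1, a repressor of TGF-beta and retinoid signalling, had 77.4 and 78.8% of its window covered in CCC. Cyp26c1 had 92.8 and 78.0%, and it was the lost member of 93 cytochrome P450 genes, of which Cyp1a1 was gained. Elk3 had 71.2 and 66.3%, Kcnn4, a calcium-activated potassium channel of blood cells, 74.7 and 65.2%, and Qprt, an enzyme of NAD synthesis, 65.3 and 49.4%. With Rcsd1, Cgas, Phldb3, Klk1b22, Olfr54 and the histone gene Hist1h2bl, whose window overlaps those of Hist1h2ai and Hist1h3h, they were among the 12 lost loci with the largest coverage in the less covered CCC library. Near-identical histone copies can share reads, so the Hist1h2bl call is uncertain.

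Clustered protocadherins, the adhesion proteins that give neurons their identity, had 4 of 57 lost (7.02%, beside 0.732% of all promoters) and 0 gained. Pcdha2, Pcdha11, Pcdhb2 and Pcdhb11 had between 5.25 and 34.6% of their windows covered in CCC. Across the 57, 22 had a lower share in HHC (38.6%) and 6 a higher share (10.5%), beside 10.2 and 17.5% of all promoters. Those genes lie side by side on chromosome 18, and neighbouring windows may lie under the same domain. Cadherins outside the clusters showed 3 of 56 gained (Clstn1, Fat1 and Cdh15) and 1 lost (Cdh10).

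In the remaining lists the counts were small, and of all promoters 1.37% were gained and 0.732% lost. Solute carriers had 8 of 385 gained and 4 lost, potassium channels 2 of 94 and 3, calcium and sodium channels 2 of 74 and 0, ionotropic neurotransmitter receptors 0 of 68 and 1, and aminergic and metabotropic receptors 3 of 79 and 1. Prostaglandin synthesis and receptors had 2 of 28 gained, Ptgfr and Tbxas1, and 1 lost, Ptger2, a receptor for prostaglandin E. Claudins and tight junctions had 1 of 34 gained, Cldn5, and imprinted genes 1 of 35, Mest, a gene switched on in expanding fat. Complement had 0 of 38 gained and 1 lost, C8b. No member was gained or lost among 49 keratins, 52 TNF superfamily genes, 79 interferon-induced genes, 59 lysosomal genes and 41 genes of the histone and polycomb machinery. Of 1092 olfactory receptors 7 were gained (0.641%) and 8 lost (0.733%), and of 394 Zfp genes 5 (1.27%) and 3 (0.761%), beside 1.37 and 0.732% of all promoters. In all, 93 gained and 39 lost promoters belonged to any of the 44 lists, so that most members of both sets lay outside them.

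The mark differed in shape between gained promoters, read in HHC libraries, and lost promoters, read in CCC libraries. Peaks were also wider over the whole HHC lists, with medians of 1499 to 1532 bp against 1259 to 1273 bp in CCC. The gained rule required 3 libraries and the lost rule 2, so the shapes are not on equal terms. At gained promoters the median share of the window under peaks was 64.3, 32.6 and 41.4% in HHC replicates 1 to 3, and at lost promoters it was 26.6 and 25.7% in the CCC libraries. Promoters marked in 5 of 5 libraries had 57.3 to 84.0%. The strongest peak ranked at the 83.4, 51.3 and 73.1 percentile of its library at gained promoters, at the 52.7 and 53.2 percentile at lost promoters, and at 89.8 to 93.5 where 5 of 5 were marked. Peaks of both sets therefore ranked below the shared domains, and those of the lost set and of HHC replicate 2 near the middle of their lists. The median widths of those peaks were 2784, 1564 and 1872 bp at gained promoters and 1182 and 1150 bp at lost promoters.

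Position relative to the TSS was also examined. A peak lay over a start site at 62.5, 33.8 and 47.2% of gained promoters in HHC replicates 1 to 3, and at 57 promoters (19.1%) in all 3. At lost promoters it did so in 50 and 55.6%, and at 65 promoters (40.6%) in both libraries. At promoters marked in 5 of 5 this held for 850 (39.8%) in all 5 libraries. The requirement covers 3 libraries for the gained set and 2 for the lost set, so these shares are not on equal terms. In the profile the lost promoters formed a narrow maximum at the TSS, whereas the gained promoters had a broad maximum downstream of it.

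**Figure D3:**
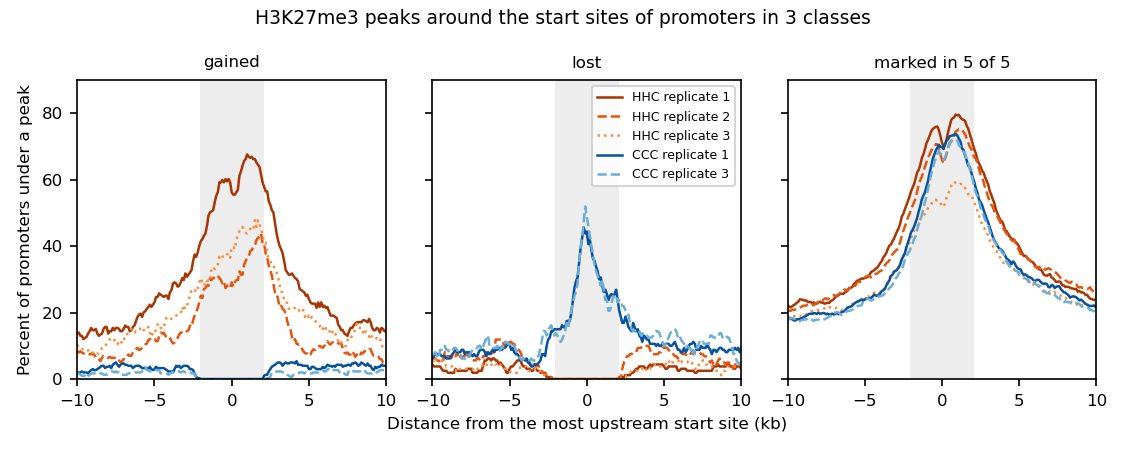
Percent of promoters under an H3K27me3 peak (vertical axis) by distance from the most upstream start site in kb (horizontal axis), for gained, lost and 5 of 5 promoters, with 1 line per library and the 2000 bp on either side shaded. Zero values inside the shaded window follow from the rule. Lost promoters peaked at the start site in both CCC libraries, and HHC replicate 1 was the highest HHC line for gained promoters.

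Gained and lost promoters lay near domains of the other group more often than unmarked promoters did. A CCC peak was found within 10 kb of 35.5% (CCC replicate 1) and 20.7% (CCC replicate 3) of gained promoters, against 11.6 and 8.32% of promoters marked in 0 of 5 libraries. An HHC peak lay within 10 kb of 27.5, 45.6 and 35% of lost promoters, against 17.6, 11.9 and 18.5%. With promoters less than 50 kb apart joined, the gained set formed 283 loci, of which 270 held a single promoter, and the lost set formed 151, of which 142 did. Most differences were thus scattered over the genome and did not come from a few large domains. The X chromosome held 1 gained promoter of 948 and 4 lost.

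CpG content was lower at gained and lost promoters than at the shared polycomb targets. In the 500 bp on either side of the TSS, the median ratio of observed to expected CpG was 0.497 at gained and 0.475 at lost promoters, against 0.595 at promoters marked in 5 of 5, 0.622 at promoters marked in 0 of 5 and 0.571 over all. Promoters marked in some libraries that were neither gained nor lost had a still lower median of 0.438. The gained and lost sets therefore resembled the group that varied between libraries more than the shared targets. The quartiles were wide, from 0.274 to 0.692 in the gained set and from 0.183 to 0.731 in the lost set.

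Libraries of other mice, which had no part in choosing the promoters, were then examined. H3K27me3 had also been profiled in obese mice after 25 weeks of HFD (HH, 2 libraries, 31 weeks old) with their controls (CC_l, 2), in obese mice after 12 weeks of HFD (H, 2, 18 weeks old) with controls (C, 3), and in mice given 8 weeks of chow after 12 weeks of HFD (HC, 3, 26 weeks old) with controls (CC_s, 3). They were of the same cross and fat depot. At the lost promoters, peaks were fewer in every diet library than in every matched control library. The lost promoters were marked at 10.0 and 8.75% in H against 33.8, 35.6 and 37.5% in C, at 24.4, 13.1 and 12.5% in HC against 41.2, 41.9 and 47.5% in CC_s, and at 38.1 and 38.1% in HH against 52.5 and 66.9% in CC_l. The differences were -26.2, -26.9 and -21.6 percentage points. Over all promoters the same differences were 0.0450, -1.59 and 0.474 points, and groups overlapped in each. Lower marking in H and HC was not limited to the lost set. Promoters marked in 5 of 5 HHC and CCC libraries were marked at 77.9 and 80.6% in H against 86.8, 91.1 and 94.2% in C, and at 84.9, 58.9 and 86.1% in HC against 90.2, 93.1 and 91.4% in CC_s, with no overlap in either pair, while HH and CC_l overlapped there. When the lost set was chosen without CCC replicate 3, the differences were smaller, at -6.21 points for H, -11.1 for HC and -9.04 for HH, and without CCC replicate 1 they were -12.4 for H and -15.0 for HC.

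The gained promoters ran in the opposite direction. They were marked at 42.8 and 52.5% in H against 11, 8.03 and 33.1% in C, and at 28.4, 19.4 and 59.5% in HC against 11.7, 14.7 and 12.4% in CC_s. These groups did not overlap, and the differences were 30.3 and 22.9 points. Without CCC replicate 3 they were 16.5 and 12.8 points, and the difference for HC was 11 points without HC replicate 3. Promoters marked in 0 of 5 HHC and CCC libraries were also marked more often in these diet groups, at 1.89 and 1.58% in H against 0.469, 0.3 and 0.732% in C, and at 1.45, 1.74 and 1.67% in HC against 0.754, 0.776 and 1.17% in CC_s. In HH the values were 84.9 and 60.9% against 72.6 and 21.7% in CC_l, which overlapped. That difference of 25.8 points rested on the controls, being 0.334 points without CC_l replicate 2 and 51.2 points without CC_l replicate 1. CC_l replicate 1 and HH replicate 2 had wide peak lists, of 110 and 101 Mb, whereas HC replicate 2 and H replicates 1 and 2 had narrow ones, of 8.54, 16.9 and 20 Mb. The part of these extents in the differences was not tested. The groups H, HC and HH also differ from HHC in age and in time on each diet.

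**Figure D4:**
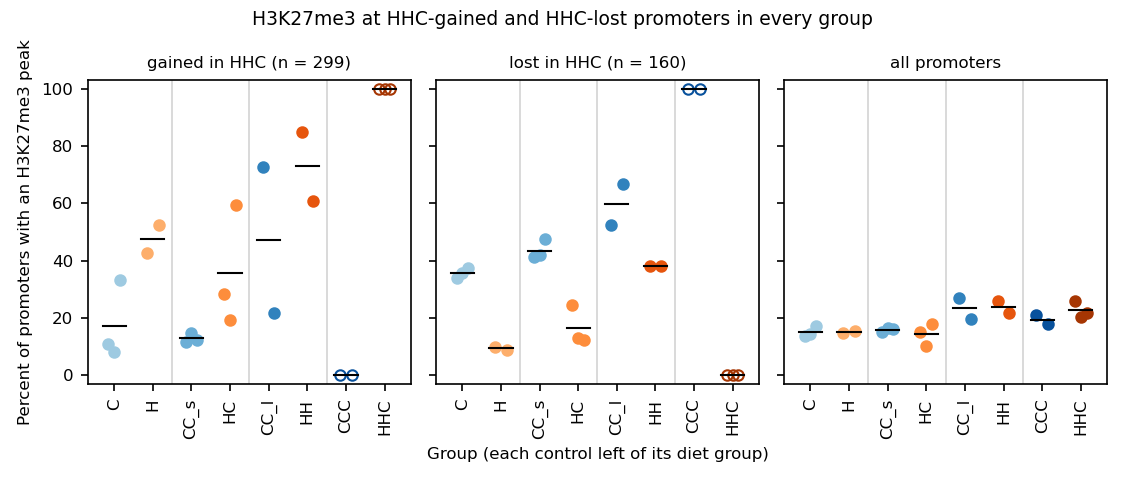
Percent of gained, lost and all promoters with an H3K27me3 peak in each library (points) and the group mean (bars), with each chow group left of its diet group. Open circles are the HHC and CCC libraries that chose the promoters. At lost promoters the diet libraries of H, HC and HH lay below their controls, and over all promoters diet and control libraries overlapped.

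Promoter by promoter, 251 of 299 gained promoters (83.9%) were marked in a larger share of the 7 other diet libraries than of the 8 other control libraries, 41 (13.7%) in a smaller share and 7 in equal shares. Of the 160 lost promoters 111 (69.4%) were marked in a smaller share of the diet libraries and 36 (22.5%) in a larger one. Over all promoters 20.2% were higher in the diet libraries (4409) and 18.1% lower (3948), while 61.8% had equal shares. Of the 21851 promoters 12565 were marked in none of these libraries, against 7 of the gained and 13 of the lost. The percentages of the sets and of all promoters are therefore not on equal terms. Chosen after their values were seen, Mlxipl and Fst were marked in 7 of 7 other diet libraries and 1 of 8 controls, Mycl and Fam110c in 6 and 1, Dixdc1 in 6 and 0, and Retn in 5 and 1. Rcsd1 and Rftn1 were marked in 0 of 7 diet and 7 of 8 control libraries, Ggta1, a glycosyltransferase that builds the alpha-Gal epitope, in 0 and 8, and Lcp1 and Myo1e in 1 and 7. Kcnn4, Qprt and Tgif1 were marked in 2 of 7 and 8 of 8, and Icam1 and Cyp26c1 in 3 and 8. Ebf2, in contrast, was marked in 7 of 7 diet libraries and also in 5 of 8 controls. Other named promoters were likewise marked in controls or ran against their call. Of the gained ones, Lrrn2 was marked in 6 of 7 and 5 of 8, Sertad4 in 6 and 8, and Nr0b2 in 2 and 7. The lost Ptger2 was marked in 6 of 7 diet and 4 of 8 control libraries.

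The strict call in obese mice of the 25-week cohort picked other promoters for the most part. There 229 promoters (1.05%) were gained in HH against CC_l and 206 (0.943%) were lost. The promoters gained in both comparisons numbered 16, which is 5.35% of the HHC list and 6.99% of the HH list, and those lost in both numbered 25, which is 15.6% and 12.1%. The 25 included Elk3, Clec4a3, Tec, Ly9, Ggta1, Lcp1, Rftn1 and Myo1e. The 2 comparisons use different animals and control libraries.

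The active marks were compared at the same promoters. H3K4me3 was found at 59.9, 69.6 and 63.2% of gained promoters in HHC and at 66.9 and 68.6% in CCC, which overlapped. It lay at 52.8% of gained promoters in all 5 libraries, close to the 57.4% of all promoters, and above the 31.5% at promoters marked by H3K27me3 in 5 of 5. Car3, Klf15, Retn, Ebf2, Rbp4, Mlxipl, Irs1, Wnt5a, Rgma and all 6 gained Hox promoters carried H3K4me3 in 5 of 5 libraries, and Klf15, Ebf2 and Rgma also carried H3K27ac in 5 of 5. These genes thus gained H3K27me3 peaks and kept peaks of active marks, in pools of nuclei that may differ from each other. By the same strict rule, H3K4me3 was lost at 2 of 299 gained promoters (Olfr71 and Myo5c) and H3K27ac at 2 (Ntsr2 and Kng2). This is 0.669% each, beside 0.375 and 0.0686% of all promoters. A call of lost H3K27ac needs a peak in CCC replicate 3, which had H3K27ac at 17.7% of all promoters. Few promoters could therefore be called lost for this mark, and the low count does not show that H3K27ac was kept.

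At lost promoters the active marks were higher in HHC. H3K4me3 was found at 56.9, 58.8 and 61.3% in HHC and at 51.9 and 49.4% in CCC, a difference of 8.33 points beside 1.83 points over all promoters, where the groups overlapped. H3K27ac was found at 55.0, 45.6 and 55.0% in HHC and at 33.8 and 10.6% in CCC. The H3K27ac list of CCC replicate 3 was small, with 17.7% of all promoters marked against 50.8 to 53.6% in the other 4 libraries. Over all promoters H3K27ac was 18.7 points higher in HHC, and there too the groups did not overlap. Against CCC replicate 1 alone, the lost promoters were higher in each HHC library, while over all promoters these libraries lay within a few points of each other. H3K4me1, a mark of enhancers and promoter flanks, was found at 48.8, 36.9 and 53.8% in HHC and at 32.5 and 31.9% in CCC. Over all promoters H3K4me1 was also higher in HHC, by 10.2 points and without overlap.

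Some lost promoters were also called for an active mark. H3K27ac was gained in HHC by the same strict rule at 16 of 160 (10.0%), beside 2.32% of all promoters, and lost at 0. The 16 were Icam1, Icam4, Rcsd1, Lcp1, Prdm1, Cxcr5, Enpp1, Rin3, Dok2, Grap, Gcnt1, Phldb3, Fam78a, Slc16a13, Gm10160 and AI467606. H3K4me3 was gained at 4 of 160 (2.50%, beside 1.39%), Ly9, Gimap1, Gm10160 and BC147527. Dok2 and Grap are adaptors of leukocyte signalling, and Gimap1 is a GTPase of lymphocytes. As markers of leukocytes carried H3K4me3 in more HHC than CCC libraries, the part of such cells in these calls was not tested either. At Icam1, Enpp1, Prdm1 and Slc16a13, a monocarboxylate transporter, H3K4me3 was present in 5 of 5 libraries and H3K27ac in 3 of 3 HHC and 0 of 2 CCC.

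**Figure D5:**
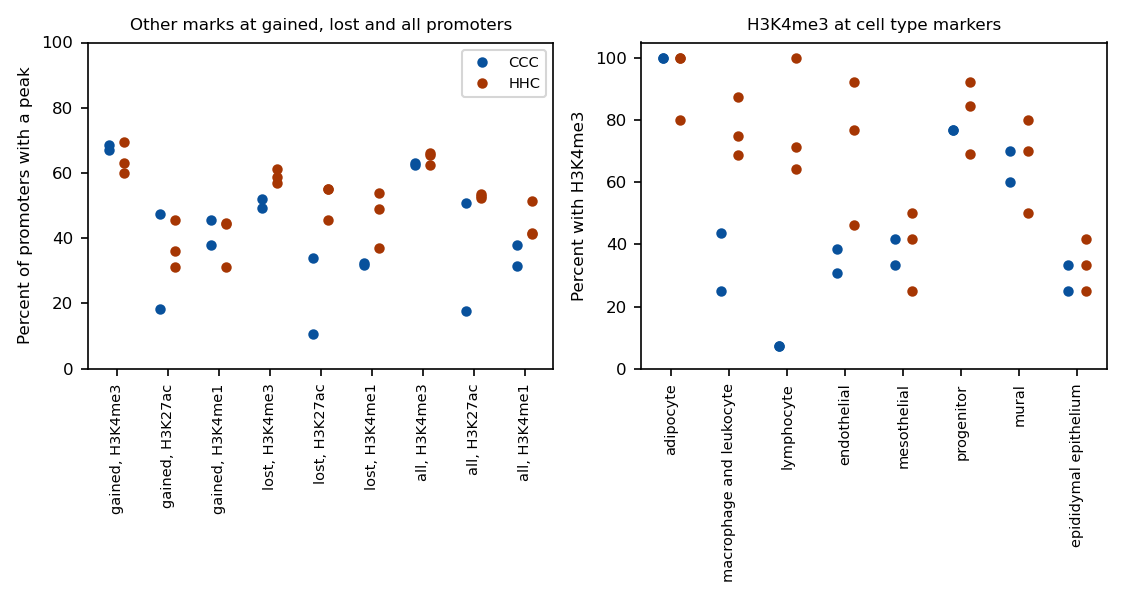
Left, percent of gained, lost and all promoters with a peak of H3K4me3, H3K27ac or H3K4me1 in each HHC (brown) and CCC (blue) library. Right, percent of the marker genes of 8 cell types with an H3K4me3 peak in the same groups. At lost promoters all 3 marks were higher in each HHC library than in both CCC libraries. Over all promoters the same held for H3K27ac and H3K4me1, but not for H3K4me3. In the right panel the groups were farthest apart at lymphocyte markers.

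Under all of 7 settings that varied window, overlap, peak number and peak strength in the 5 libraries, 43 of the gained and 14 of the lost promoters kept their call. The 43 included Retn, Car3, Ebf2, Mogat2, Hoxc6, Wnt5a, Sfrp4, Rgma, Inhbe and Cldn5. The 14 included Tgif1, Elk3, Cgas, Qprt, Phldb3 and Ptger2. In the other groups, however, Ptger2 ran against its call, with 6 of 7 diet libraries and 4 of 8 controls marked. Klf15 and Icam1 were not among them because both were uncalled when only the stronger peaks of each list were used. Mlxipl and Irs1 were uncalled with windows of 500 and 5000 bp, Rbp4 with the window of 500 bp and with the stronger peaks, and Rcsd1 and Cyp26c1 with the window of 5000 bp.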

How the data were processed

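H3K27me3 CUT&Tag libraries of 3 HHC and 2 CCC mice were compared, with 15 H3K27me3 libraries of other groups and the H3K4me3, H3K27ac and H3K4me1 libraries of HHC and CCC (36 of 84 files; 48 unused). Per the labels and methods, the authors trimmed reads with Trim Galore 0.6.6, aligned them to mm10 (GRCm38) with Bowtie2 2.4.4, used SAMtools 1.13 and bedtools 2.30, and called peaks in each library alone with SEACR 1.3, in stringent mode at a threshold of 0.01. The deposited lists give for each peak its position, total signal and highest coverage. Signal was ranked only within a library, as percentiles. Read depth is unknown (mean coverage within peaks was 5.50 to 7.11 in the 5 libraries), and a missing peak does not show that the mark is absent. Read counts, which the study tested with edgeR, were not used here.

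Promoters came from the GENCODE M21 basic annotation (41438 start sites, 21851 genes). Overlaps were computed in Python 3.11.15 with NumPy 2.4.6 and tested on simulated data. Library measures were compared by exact permutation. Groups follow sample titles. The treatment field names another group for the H3K4me3 library of CCC replicate 3, and it was run as an alternative. Nothing says which libraries were prepared together.

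The promoters, the 44 gene lists, the 8 marker lists and the comparisons were chosen with earlier results of these data known, and no list was tested. Genes were named by a rule. Per direction it took the 12 loci with the largest window coverage in the least covered library of the marked group, then up to 6 gained or lost members per list, and the promoters of Tyrobp, Lyz2, Icam1, Gpam, Acacb and Cyp2e1, which served as examples in the study. Of these, Cyp2e1 had 0% of its window covered in 5 libraries, Lyz2 had 12.3% in HHC replicate 3 alone, and Tyrobp had 0, 51.3 and 67.8% in HHC and 73.0 and 38.2% in CCC. Genes outside the rule, such as Dkkl1, Bmper, Mycl, Ggta1, Ly9, Lcp1, Rftn1, Myo1e and the partly marked list members, were chosen after their values were seen. Alternatives varied the window, the overlap, the peaks used, the libraries and the annotation. Sequences came from the GRCm38.p6 genome. A few members and a sequence are not reported here.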

Additional observations from a re-analysis of the deposited data

Results flagged for a closer look

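Peaks covered more of the genome in every HHC library than in both CCC libraries, but less in every HC library than in the CC_s libraries (log2 ratio of means -1.06) and less in every H library than in the C libraries (-1.47). These opposite directions were not tested.

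Elf5, an ETS-family factor of epithelia, was the 1 promoter gained in HHC against CCC and lost in HH against CC_l. Its window was covered over 46.6, 47 and 48.6% in HHC. At 4 promoters, Btn2a2, Khdrbs3, Olfr284 and Tmem39a, H3K27me3 was gained in HHC against CCC and lost in H against C. Tmem39a had 41, 91.6 and 48.8% covered in HHC. These opposite calls were not tested, and the groups differ in age and time on the diet.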

How the results depend on the processing

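Gained promoters numbered 299, and 197 with a window of 500 bp (115 of them shared). Leaving out each library gave 395 to 781. Lost promoters numbered 160, and 106 (53 shared) when a gap of 25 points in window coverage was required. Leaving out each library gave 201 to 553. The replicate block, pairs 1 and 3 alone, gave 781 gained and 354 lost. Same-numbered libraries gave correlations of deviations of 0.09 and -0.01. With 2 CCC libraries their deviations mirror each other, so this check cannot decide whether the numbers pair libraries. The stronger peaks of each list gave 225 gained (111 shared) and 120 lost (51 shared). Windows of 1000 and 5000 bp, a 500 bp overlap, equal peak numbers and the comprehensive annotation, added after seeing the data, gave 241 to 448 gained and 146 to 171 lost.

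With libraries left out, the log2 ratio of peak numbers ran from -0.03 to 0.21, with -0.00 without HHC replicate 3, and the difference in the share of peaks at promoters from -0.330 to 3.31 points. At gained promoters HC minus CC_s ran from 11 to 31 points. The H minus C difference ran from 16.5 to 38.1 points at gained promoters and from -36.3 to -6.21 at lost promoters (-28.2 with equal peak numbers). At lost promoters HH minus CC_l ran from -28.8 to -9.04 and HC minus CC_s from -35.5 to -11.1. The smallest came without CCC replicate 3. With groups by the treatment field, H3K4me3 at lost promoters differed by 5.52 points. The causes were not tested. Depth limits every absence of a peak.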
